A study of Mus musculus with 6 samples.

Results

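The apolipoprotein genes encode the proteins that coat lipoprotein particles, and 10 of them were followed here in the livers of SM and NZB mice: Apoa1, Apoa2, Apoa4, Apoa5, Apob, Apoc1, Apoc2, Apoc3, Apoc4 and Apoe. They were chosen by name, and every probe set that the array's annotation pairs with one of these genes alone was taken. This gave 15 of the 45037 probe sets on the array, with 4 for Apoa1, 2 each for Apoa4 and Apob and 1 for each other gene. Each gene was measured. The RNA came from whole liver of 6 untreated mice, labelled female and aged 8 weeks, 3 of the inbred strain SM/J (SM) and 3 of the inbred strain NZB/BinJ (NZB), all obtained from the Jackson Lab. All 6 were weaned onto chow at 3 weeks, fasted for 4 hours and perfused with 50 mL of saline before the liver was frozen. Each mouse gave 1 single-color array, and the titles mark the 3 arrays of each strain as biological replicates.

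Lipids travel in plasma as particles wrapped in apolipoproteins, most of which the liver secretes. Apoa1 and Apoa2 are the main proteins of high density lipoprotein (HDL), Apob is the structural protein of very low and low density lipoprotein, and Apoe is the ligand by which remnant particles are taken up into liver. The small C apolipoproteins and Apoa5 set how fast lipoprotein lipase empties particles of triglyceride: Apoc2 is its cofactor, Apoa5 promotes its action and Apoc3 slows it. Crosses of these strains have been used to map loci for plasma HDL cholesterol.

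The highest log2 median of an array was 6.66 and the lowest 6.60. Across probe sets, which are not independent, Pearson's r was 0.995 to 0.997 within a strain and 0.985 to 0.987 between strains. SM replicate 2 read 7.32 for Xist, the RNA of the inactive X chromosome, where the other SM arrays read 12.8 and 12.9 and the NZB arrays 12.6 to 12.7. A low Xist level goes against the female label of that mouse. Yet no Y-linked probe set, apart from those marked for cross-hybridization, read above 6.69 on any array, that one included. The sex of that mouse was therefore not settled. The tests of the 15 apolipoprotein probe sets and of the called genes in the lists were repeated without that mouse. The highest reading of a Y-linked probe set was 6.69, or 8.04 with an Sry probe set marked for cross-hybridization, and all 15 apolipoprotein probe sets read above both on every array. Hepatocyte markers were at 13.4 to 13.5 on average in SM and in NZB, with 8 of the 10 fixed markers measured and 1 higher and 1 lower in NZB. In whole liver, fewer cells of a type and less RNA per cell cannot be told apart. The number of arrays limits the precision of every value.

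Of the 15 apolipoprotein probe sets, 2 changed between the strains. Apoc2 was higher in NZB and Apoa5 was lower. A probe set is said to have changed where its adjusted p was under 0.05 (limma with Benjamini-Hochberg adjustment over all probe sets), and 14.8% of all probe sets passed that threshold, 6.09% higher in NZB and 8.69% lower. The share of apolipoprotein probe sets that passed was near this background and is no result about the group. The median difference of the 15, NZB minus SM, was 0.0070 on the log2 scale, beside 0.023 for all probe sets, and the median size of the difference was 0.075 beside 0.10. The readings of the strains did not overlap for 4 apolipoprotein probe sets, those of Apoc2, Apoa5, Apoc3 and Apoc4, nor for 34.3% of all probe sets.

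**Figure D1:**
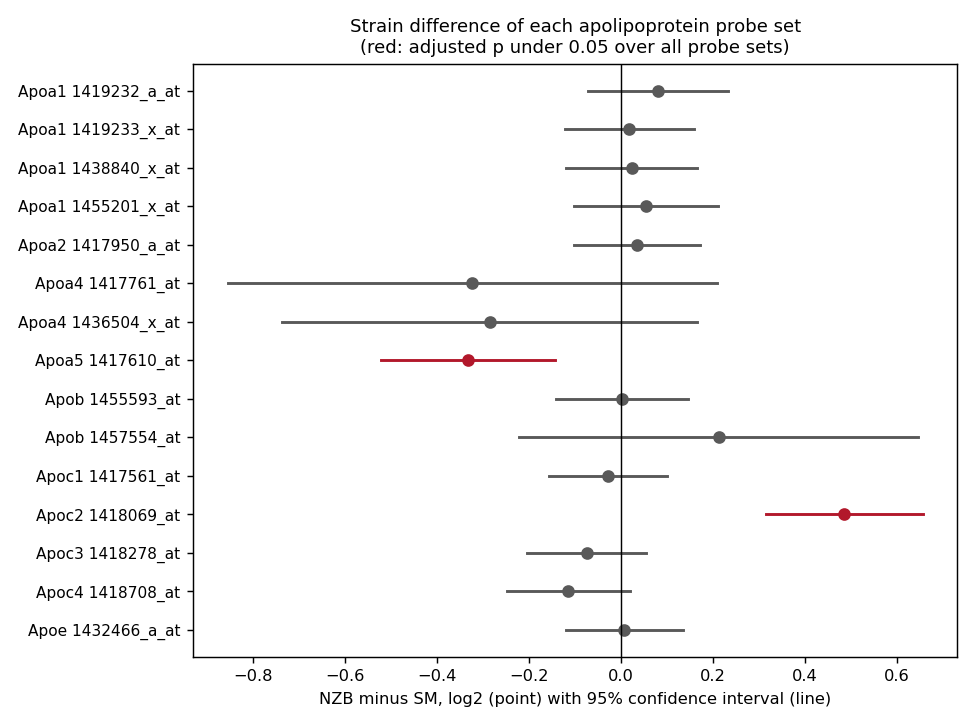
Difference between the strains (NZB minus SM, log2) for each of the 15 apolipoprotein probe sets, with the 95% confidence interval of the limma fit as a line; red marks an adjusted p under 0.05. Apoc2 at 0.49 lies above 0 and Apoa5 at -0.33 lies below it, the intervals of the other 13 include 0, and those of Apoa4 and the dimmer Apob probe set are the widest.

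The HDL proteins come first. Apoa1, which forms the HDL particle and activates the enzyme that esterifies its cholesterol, is read by 4 probe sets. The brightest, 1419233_x_at, read 14.63, 14.74 and 14.75 in SM and 14.75, 14.72 and 14.70 in NZB. The readings of the strains overlapped, and SM replicate 1 was the lowest of the 6. The difference was 0.018 (SE 0.062, 95% confidence interval -0.12 to 0.16, limma adjusted p = 0.885). The probe set 1455201_x_at read 14.51, 14.67 and 14.70 in SM and 14.72, 14.65 and 14.67 in NZB, and 1438840_x_at read 14.54, 14.64 and 14.67 in SM and 14.66, 14.60 and 14.66 in NZB. For 1419232_a_at the readings were 14.15, 14.29 and 14.31 in SM and 14.38, 14.29 and 14.33 in NZB. SM replicate 1 was the lowest array in all 4, and the strains overlapped in all 4. The 4 differences ran from 0.018 to 0.081, and none passed the test. Without SM replicate 1, or after quantile normalization, the differences of all but 1419232_a_at turned negative, as did those of 1419233_x_at and 1438840_x_at with array medians aligned.

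Apoa2 encodes the second protein of HDL, and its single probe set was the second brightest on the array. It read 14.88, 14.87 and 14.78 in SM and 14.89, 14.86 and 14.89 in NZB. The strains overlapped, with SM replicate 3 the lowest. The difference was 0.035 (SE 0.061, interval -0.10 to 0.17, limma adjusted p = 0.751), and quantile normalization turned it to -0.0084.

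Apob, the protein on which the liver builds very low density lipoprotein, has 2 probe sets. The brighter, 1455593_at, read 13.93, 13.95 and 13.96 in SM and 13.99, 13.86 and 14 in NZB. The SM mice lay inside the NZB range, and the difference was 0.0014 (SE 0.064, interval -0.14 to 0.15, limma adjusted p = 0.991). Its sign turned in 5 of 14 other settings. The dimmer probe set, 1457554_at, varied far more between mice of a strain, at 11.39, 11.93 and 12.18 in SM and 12.11, 11.76 and 12.26 in NZB. Its difference was 0.21 (SE 0.19, interval -0.22 to 0.65, limma adjusted p = 0.512), and without SM replicate 1, the lowest array, it was -0.0091.

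Apoe, a ligand for the uptake of remnant particles, had the smallest SD of the 15 probe sets in both strains, at a level near the top of the scale. It read 14.60, 14.60 and 14.61 in SM and 14.62, 14.60 and 14.60 in NZB, and the strains overlapped. The difference was 0.0070 (SE 0.056, interval -0.12 to 0.13, limma adjusted p = 0.954), and it was negative after quantile normalization and with array medians aligned. Its within-strain SD, 0.0067 in SM and 0.012 in NZB, was small beside the median SD of 0.035 for the 50 probe sets with a mean level of 14 or more.

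Of the small C apolipoproteins, Apoc1, Apoc3 and Apoc4 did not pass the test. Apoc1, an exchangeable protein of triglyceride-rich particles and HDL, read 14.36, 14.33 and 14.33 in SM and 14.33, 14.32 and 14.29 in NZB. The strains overlapped (difference -0.029, SE 0.057, limma adjusted p = 0.784). Apoc3, which slows lipoprotein lipase and the uptake of remnants, read 14.36, 14.32 and 14.31 in SM and 14.24, 14.25 and 14.27 in NZB. All 3 NZB mice lay below all 3 SM mice, yet the difference of -0.075 (SE 0.057, interval -0.20 to 0.054) had an adjusted p of 0.429 in the limma fit. Apoc4, a minor exchangeable apolipoprotein, read 13.67, 13.67 and 13.60 in SM and 13.55, 13.50 and 13.55 in NZB. Its strains did not overlap either (difference -0.11, SE 0.059, interval -0.25 to 0.019, limma adjusted p = 0.238). None of the 13 probe sets that missed the threshold passed it in any other setting run. There were 14 of these for 9 of them and 13 for the 4 whose IDs end in _x_at, which the filter on cross-hybridization removes, and the smallest adjusted p was 0.144. Missing the threshold does not show equal levels. For the 10 of them with a mean level of 13 or more, the intervals held NZB to SM ratios of array signal between 0.842 and 1.18. Where an array saturates, such a ratio can understate a difference in RNA.

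Apoc2, the cofactor that lipoprotein lipase needs to act on triglyceride, was higher in NZB. Its probe set, 1418069_at, read 11.96, 11.79 and 12.04 in SM and 12.45, 12.41 and 12.39 in NZB. All 3 NZB mice lay above all 3 SM mice, and the SM mice were more spread (11.93 ± 0.13 against 12.42 ± 0.030, SD, n = 3 each). The difference was 0.49 (SE 0.075, interval 0.32 to 0.66, limma adjusted p = 0.00324), a ratio of 1.40 with an interval of 1.24 to 1.58. It passed the test in all 14 other settings, with an adjusted p of 0.00131 to 0.0157, and was 0.42 without SM replicate 2. RefSeq lists a readthrough gene, Gm44805 (Apoc4-apoc2), that begins with Apoc4 and ends with Apoc2 and has no probe set of its own, so its RNA and that of Apoc2 were not told apart here.

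Some markers of immune cells were higher in NZB alongside Apoc2, where 8.47% of all genes were higher and 12.6% lower. Of 6 measured B and plasma cell markers 3 were higher and 0 lower, with a mean of 6.25 to 6.32 in SM and 7.07 to 7.35 in NZB, and Jchain, a gene of antibody-secreting cells, differed by 4.28. Of 6 T and NK cell markers 4 were higher and 0 lower, with a mean of 6.30 to 6.42 in SM and 6.53 to 6.61 in NZB. Cd79a, Cd79b and Pax5 of the first list and Cd3d, Cd3g, Nkg7 and Ncr1 of the other lay under 6.69 on every array. Cd3d, Cd3g and Nkg7 are among the 4 higher T and NK cell markers, and the other was Cd3e (mean 7.71 in SM and 8.04 in NZB). Beside Jchain, the higher B and plasma cell markers Ms4a1 and Mzb1 differed by 0.38 and 0.29. Kupffer cells are the macrophages of the liver. Of their 12 markers, all measured, 9 were higher in NZB and 1, Marco, was lower, with 5 higher without NZB replicate 2. Their mean log2 level was 9.21 to 9.37 in SM and 9.62 to 9.88 in NZB, and none lay at or under 6.69 on every array. The monocyte and macrophage lysozyme gene Lyz2 differed most, by 2.32, while Clec4f, which is made by Kupffer cells, differed by 0.033. In SM replicates 1, 2 and 3 the Kupffer marker mean was 9.22, 9.37 and 9.21, beside Apoc2 at 11.96, 11.79 and 12.04. In NZB replicates 1, 2 and 3 it was 9.62, 9.88 and 9.72, beside Apoc2 at 12.45, 12.41 and 12.39. SM replicate 2 is the mouse with the low Xist level. Apoe, which macrophages also make, differed by 0.0070, but its mean level of 14.60 lies near the top of the scale, where an array can saturate. The part of any of these cells in the Apoc2 result was not tested.

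Apoa5, a scarce plasma protein that promotes triglyceride clearance and is made in the liver, was lower in NZB. Its probe set, 1417610_at, read 13.75, 13.79 and 14.04 in SM and 13.56, 13.47 and 13.55 in NZB. All 3 NZB mice lay below all 3 SM mice, and SM replicate 3 stood above the other SM mice (13.86 ± 0.16 against 13.53 ± 0.049, SD, n = 3 each). The difference was -0.33 (SE 0.084, interval -0.52 to -0.14, limma adjusted p = 0.0295), a 1.26-fold lower level. This call was near the threshold and ended in 6 of 14 other settings. The adjusted p was 0.0550, 0.0509, 0.0628, 0.0982 and 0.0825 without SM replicates 2 and 3 and NZB replicates 1, 2 and 3, and 0.0538 after quantile normalization. Without SM replicate 3 the difference was -0.24.

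**Figure D2:**
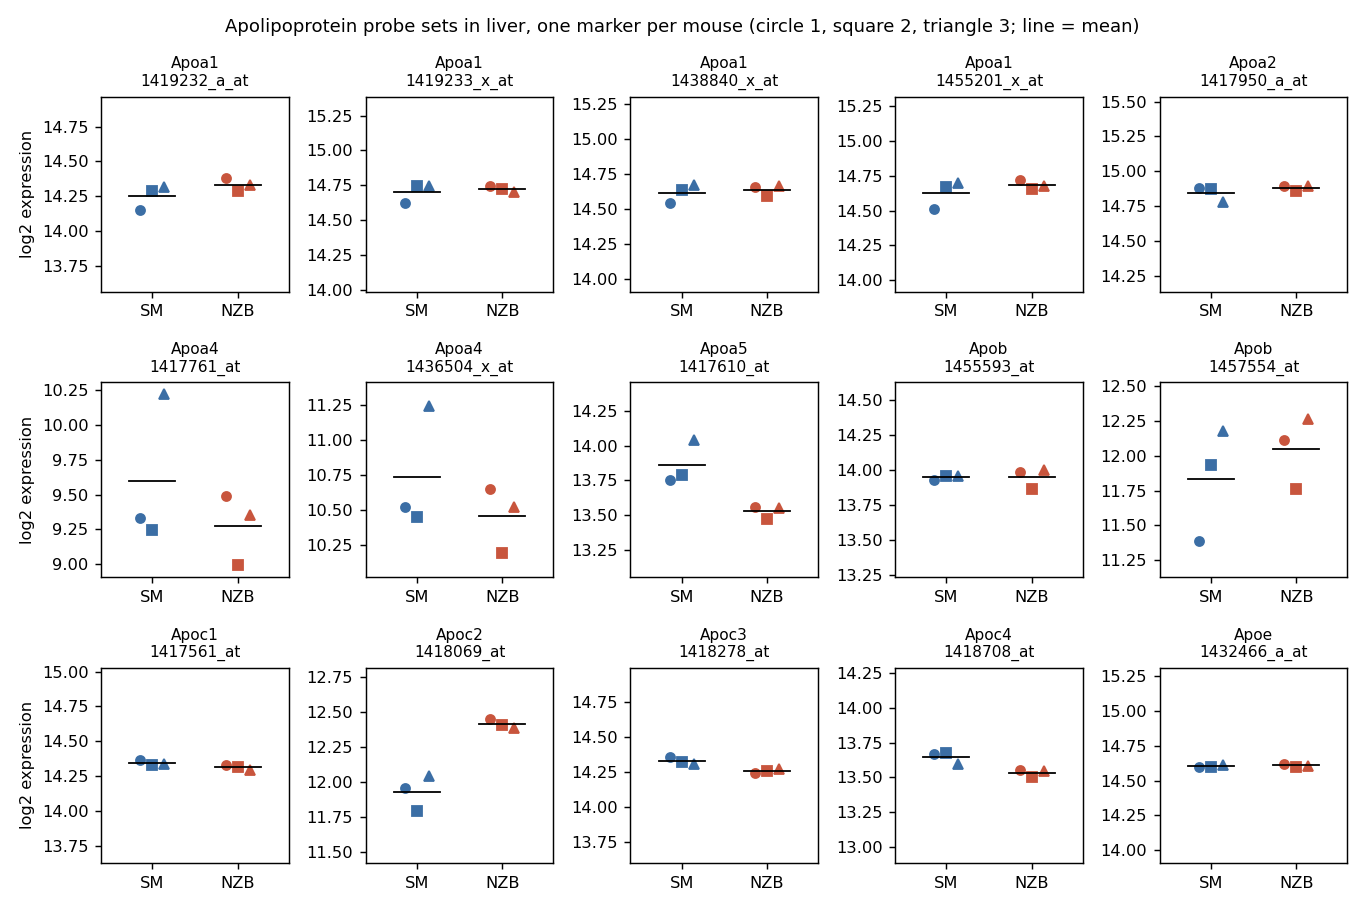
Log2 expression of the 15 apolipoprotein probe sets, 1 panel each, with SM mice in blue and NZB mice in red, 1 marker per mouse and a line at the strain mean; every vertical axis spans the same range of 1.4. The Apoc2 panel, with SM at 11.79 to 12.04 and NZB at 12.39 to 12.45, and the Apoa5 panel show separated strains, while Apoa4 shows a single high SM mouse at 10.22 and 11.24.

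The promoters of Apoc2 and Apoa5 are shown because these were the genes whose RNA changed. The sequences are those of RefSeq for the reference strain C57BL/6J (GRCm38.p6), not of SM or NZB, and run 5′ to 3′ from 250 bases before the start of the gene to 50 bases after it. Capitals mark matches, on both strands, to TATAAA (a core promoter element), AGGTCA (a core site of many nuclear receptors), and CACGTG (an E-box), and no matches overlap. The Apoc2 promoter lies at chr7:19677892-19678191 on the minus strand and that of Apoa5, the first listed of 2 entries, at chr9:46268358-46268657 on the plus strand.
Apoc2: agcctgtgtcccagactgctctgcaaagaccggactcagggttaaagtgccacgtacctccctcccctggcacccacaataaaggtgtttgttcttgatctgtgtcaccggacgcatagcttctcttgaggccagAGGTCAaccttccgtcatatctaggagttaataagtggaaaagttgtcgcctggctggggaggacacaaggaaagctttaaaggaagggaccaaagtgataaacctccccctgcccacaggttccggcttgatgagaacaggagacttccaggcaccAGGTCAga
Apoa5: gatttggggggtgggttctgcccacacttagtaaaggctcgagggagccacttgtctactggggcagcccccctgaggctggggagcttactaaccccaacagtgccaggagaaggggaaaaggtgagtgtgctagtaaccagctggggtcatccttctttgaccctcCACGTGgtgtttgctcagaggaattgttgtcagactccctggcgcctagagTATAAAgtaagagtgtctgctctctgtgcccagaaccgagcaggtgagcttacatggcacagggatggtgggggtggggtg

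In these windows Apoc2 has AGGTCA at -115 and 43 (first base, counted from the start of the gene), and Apoa5 has CACGTG at -82 and TATAAA at -31. Of all 32851 RefSeq promoter entries of 300 bases, 13.6% hold TATAAA, 16.3% AGGTCA and 7.15% CACGTG. Of the 10 genes, 8 have an entry, and among their first listed entries TATAAA is in 3, AGGTCA in 2 and CACGTG in 1. Apoc1 and Apoc3 have no entry. These matches describe the reference letters, and no binding was measured.

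Apoa4, a protein of chylomicrons and HDL that the intestine and, in mice, the liver make, was the most variable member. Its probe set 1417761_at read 9.33, 9.25 and 10.22 in SM and 9.49, 8.99 and 9.35 in NZB. The other, 1436504_x_at, read 10.52, 10.45 and 11.24 in SM and 10.65, 10.19 and 10.52 in NZB. In both, SM replicate 3 stood far above the other SM mice and NZB replicate 2 was the lowest, and the strains overlapped. The differences were -0.32 (SE 0.24, interval -0.86 to 0.21, limma adjusted p = 0.407) and -0.29 (SE 0.20, interval -0.74 to 0.17, limma adjusted p = 0.387). Markers of intestinal enterocytes, where Apoa4 is also made, averaged 6.51 to 6.68 in SM and 6.64 to 6.67 in NZB, with 4 of the 5 measured, Vil1, Alpi, Lct and Cdh17, under the Y-linked level of 6.69 on every array. The other, Fabp2, lay far above that level, at a mean of 10.56 in SM and 10.46 in NZB (difference -0.10, limma adjusted p = 0.758). Of the 5, Alpi was higher in NZB (by 0.24) and none was lower.

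Probe sets of the same gene were set against each other. For each pair of probe sets of Apoa1, Apoa4 and Apob, 8 pairs in all, the difference between both was taken within each array and compared between strains. In 7 pairs the strains overlapped. In the eighth, Apoa1 1419232_a_at minus 1438840_x_at, NZB lay above SM by 0.058, with an exact two-sided permutation p = 0.1 (Benjamini-Hochberg adjusted 0.4), the smallest p that 3 mice against 3 allow, so that no pair could pass the threshold and no agreement is read from these tests. For the pair of Apoa4 probe sets the shift was -0.038 (exact p = 0.9), and for the pair of Apob probe sets it was -0.21 (exact p = 0.6), with within-array differences of 1.78 to 2.54 in SM and 1.74 to 2.10 in NZB.

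Most of these genes read near the top of the scale, where an array can saturate. The highest reading of the table was 14.8955, and 8 of the 15 probe sets had a mean of 14 or more. Only 50 probe sets of the array were that bright. Of these 50, 5 passed the test and the median size of the difference was 0.080, against 24.8% and 0.15 of the 218 probe sets at 13 to 14 and 36.5% and 0.18 of the 524 at 12 to 13. Of the 268 probe sets with a mean of 13 or more, 22.0% passed, and 1 of the 11 apolipoprotein probe sets among them did, Apoa5. The probe set of Apoc2, at 12.2, lies below this range. True evenness of the brightest apolipoprotein RNAs and compression by saturation cannot be told apart from these values.

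**Figure D3:**
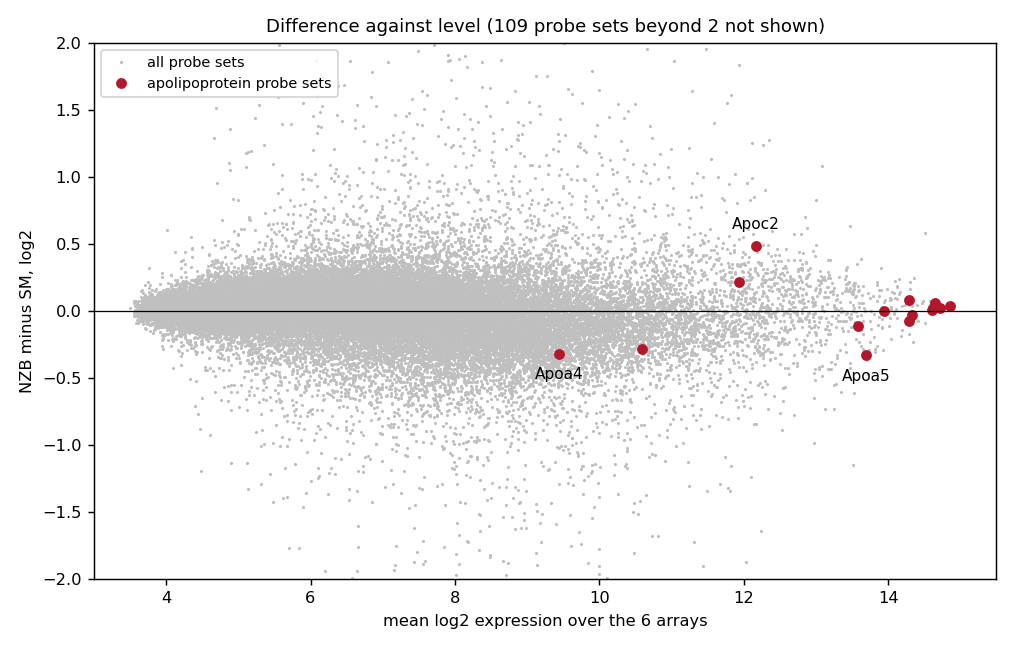
Difference between the strains (NZB minus SM, log2) against the mean log2 expression over the 6 arrays, for all probe sets (grey) and the 15 apolipoprotein probe sets (red); 109 probe sets with a difference beyond 2 lie outside the axis. The 8 apolipoprotein probe sets at 14 or more lie close to 0, as the grey points around them do, and Apoc2 stands apart from them in level and difference.

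Of the members, 8 lie in a pair of gene clusters. On chromosome 7 the order is Apoc2, Apoc4, Apoc1, Apoe, and on chromosome 9 it is Apoa1, Apoc3, Apoa4, Apoa5 (RefSeq gene order). Within an array, differences of log2 values between members were taken as descriptions, chosen after the values were seen. Apoc2 minus its neighbour Apoc4 was -1.71, -1.88 and -1.56 in SM and -1.10, -1.09 and -1.15 in NZB. The strains were apart by 0.60. Apoa5 minus its neighbour Apoa4 was 3.23, 3.34 and 2.80 in SM and 2.92, 3.28 and 3.03 in NZB, and the strains overlapped. Against the other members of its cluster the strains were apart, with a shift of -0.35 for Apoa5 minus Apoa1 and -0.26 for Apoa5 minus Apoc3. Apoa5 minus Apoc2, which combines the genes that changed, was 1.80, 2.00 and 2.00 in SM and 1.11, 1.06 and 1.16 in NZB, a shift of -0.82.

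Genes that flank the clusters were read as well, the 3 nearest measured protein-coding genes on each side, at 1 probe set per gene (the brightest, tested over 18193 genes). Next to Apoa5, Zpr1, a zinc finger protein gene, was lower in NZB (-0.54, SE 0.089, limma adjusted p = 0.00281), and next to Apoa1 the salt-inducible kinase gene Sik3 was lower (-0.52, SE 0.10, limma adjusted p = 0.00633). Next to Apoe, the mitochondrial import gene Tomm40 was lower (-0.52, SE 0.079, limma adjusted p = 0.00204), followed by Nectin2, a cell adhesion gene, which was higher (0.65, SE 0.098, limma adjusted p = 0.00193). The mean of the Nectin2 probe sets differed by 0.019 (limma adjusted p = 0.915). Beside Apoc2, Clptm1 differed by -0.21 and narrowly missed the threshold (limma adjusted p = 0.0558). The other 7 flanking genes did not pass either. Of all genes 21.0% passed, 8.47% higher and 12.6% lower in NZB.

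**Figure D4:**
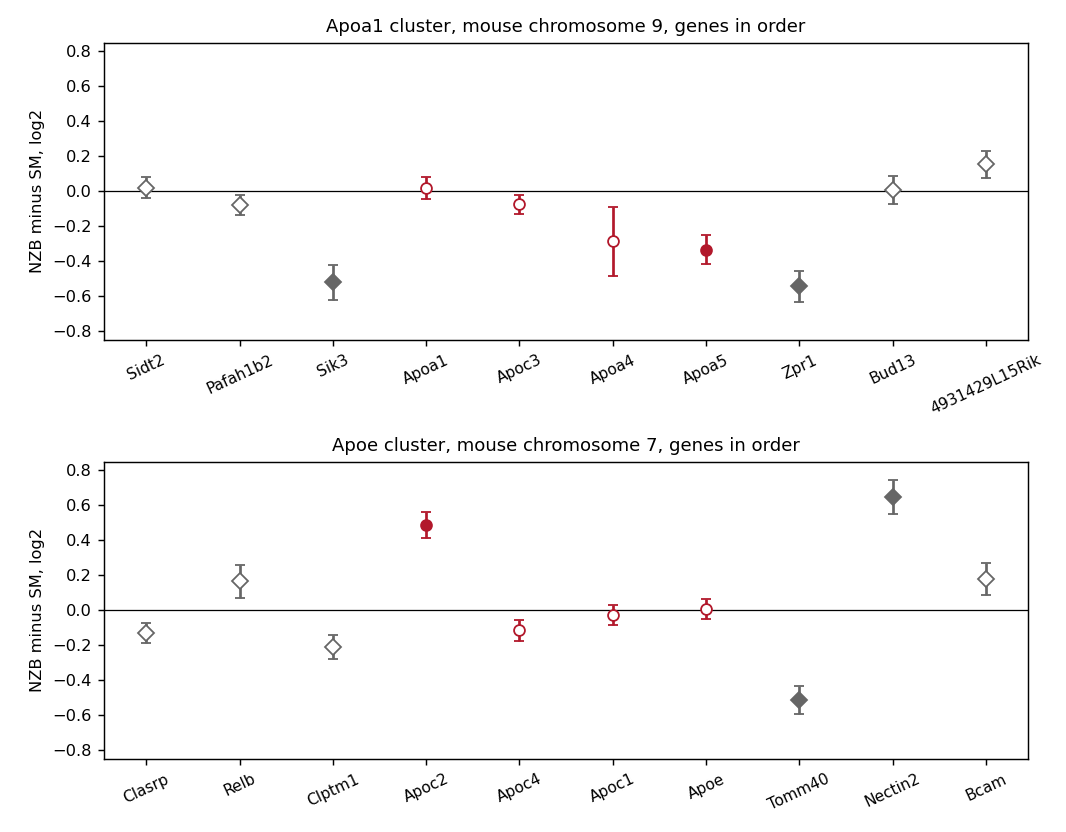
Difference between the strains (NZB minus SM, log2, with its standard error as a bar) for the genes of the Apoa1 cluster on chromosome 9 and the Apoe cluster on chromosome 7 in genome order, with apolipoprotein genes as red circles and flanking genes as grey diamonds; filled markers passed the test. Apoc2 at 0.49 lies beside Apoc4 at -0.11, and Apoa5 at -0.33 beside Zpr1 at -0.54.

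Single mice stood out over several members. SM replicate 3 had the highest reading of its strain in 11 of 15 probe sets and SM replicate 1 the lowest in 8. In NZB, replicate 1 was highest in 11 and replicate 2 was lowest in 11 and highest in 0. These shifts were small for most members, with median deviations from the strain mean of -0.075 to 0.055 in SM and -0.033 to 0.033 in NZB, but reached 0.62 for Apoa4 in SM replicate 3. Apoa1 and Apob were lowest in SM replicate 1 for every probe set within the strain. The median SD within a strain was 0.048 over the members and 0.081 over all probe sets. It was lower for bright probe sets in general, at 0.035 for those with a mean of 14 or more, where 8 of the members lie, and 0.058 for those at 13 to 14.

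At 1 probe set per gene, 2 of the 10 apolipoprotein genes changed, beside 21.0% of all genes. Of 12 further apolipoproteins, 1 was higher, 1 was lower and 10 did not pass, with a median of 0.055, and 2 were lower without SM replicate 3. Apon, a plasma apolipoprotein gene, was lower in NZB by 1.30-fold (-0.38, SE 0.066, limma adjusted p = 0.00389), and Apof, which inhibits lipid transfer, was higher by 1.19-fold (0.25, SE 0.067, limma adjusted p = 0.0260). Apof missed the threshold without SM replicate 1 or 2 and without any one NZB mouse (limma adjusted p = 0.0572 to 0.0848).

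Genes that build, process and clear lipoproteins were read from lists, beside a median difference of 0.021 over all genes. In NZB, 8.47% of all genes were higher and 12.6% lower. Most of the listed genes read above 8. Probe sets at a mean of 8 to 10 passed in 29.4% of cases and those at 10 to 12 in 32.1%, against 14.8% over all levels. These shares come from the fit over all probe sets, while the counts of the lists come from the fit over genes. Of 17 genes of lipoprotein assembly and secretion, 4 were higher, 3 were lower and 10 did not pass. Their median of -0.027 was positive in 5 other settings, at 0.019 and 0.016 without NZB replicates 2 and 3, 0.021 after quantile normalization, 0.0062 without cross-hybridizing probe sets and 0.022 with the mean of a gene's probe sets. Mttp, which loads lipid onto Apob, differed by -0.15 (limma adjusted p = 0.118). The secretory coat genes Sec24a (-0.48), Sar1a (-0.38) and Sar1b (-0.32) were lower. Of the higher genes, A1cf (0.64), the cofactor of Apob mRNA editing, was followed by the sorting receptor gene Sort1 (0.36), the folding enzyme gene Pdia3 (0.34) and the chaperone gene Canx (0.29). The call of A1cf ended without SM replicate 2 or NZB replicate 2 or 3 (adjusted p = 0.0585 to 0.0739). The editing enzyme gene Apobec1 itself differed by 0.17 (limma adjusted p = 0.0829).

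Of 13 measured lipase and remodelling genes, 5 were higher, 3 were lower and 5 did not pass (median -0.067). Over all genes 8.47% were higher and 12.6% lower. Lpl, the lipase that Apoc2 and Apoa5 act on, was 4.36-fold higher in NZB, and Lmf1, which matures it, was 1.27-fold higher. Pla2g7 (1.09), Pon3 (0.55) and Pltp (0.50), enzymes and a transfer protein carried on lipoproteins, were also higher. Macrophages express Lpl, Pla2g7 and Pltp as well. Of 12 Kupffer cell and macrophage markers, averaging 9.21 to 9.37 in SM and 9.62 to 9.88 in NZB, 9 were higher and 1, Marco, was lower (-0.66). The count of higher markers was 5 without NZB replicate 2, and Clec4f (0.033) and Timd4 (0.12) did not pass. The part of macrophages in the list's changes was not tested. The endothelial lipase gene Lipg (-1.45), Angptl4 (-0.81), an inhibitor of Lpl, and the monoglyceride lipase gene Mgll (-0.78) were lower. The call of Angptl4 ended without SM replicates 2 and 3 and NZB replicates 2 and 3 and in 4 further settings (adjusted p = 0.0523 to 0.439). Its difference was -0.092 once cross-hybridizing probe sets were left out.

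Of 15 measured receptor and lipid transporter genes, 2 were higher, 6 were lower and 7 did not pass (median -0.18). Over all genes 8.47% were higher and 12.6% lower. Cd36 (-1.81), Scarb1 (-1.09), the HDL receptor, and Vldlr (-0.63) were the most reduced. The cholesterol exporter gene Abcg1 (0.39) and the remnant receptor gene Lsr (0.20) were higher, and Lrp1, a receptor for Apoe, differed by -0.18 (limma adjusted p = 0.0556). The call of Lsr ended in 8 settings, 5 of them with an array left out (adjusted p = 0.0753 to 0.131 over the 8). That of Vldlr ended in 5, including without SM replicate 2 and NZB replicates 2 and 3 (0.0690 to 0.446 over the 5), with a difference of -0.16 without marked probe sets. Without SM replicate 2 the list held 5 called genes.

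Of 26 measured genes for factors known to act on apolipoprotein genes, 10 fell below SM in NZB, 1 rose above it and 15 missed the threshold (median -0.20), beside 12.6% lower and 8.47% higher over all genes. The higher count was 2 without SM replicate 3, after quantile normalization, with array weights, with trended and robust variances and with the lower floor on dim probe sets. Most of the 26 read at 8 to 12. In the fit over all probe sets, not the gene fit of this list, 29.4% (8 to 10) and 32.1% (10 to 12) of probe sets passed there, against 14.8% at all levels. Without dim probe sets, 28.5% of called genes were higher in NZB, so calls at such levels lean lower in general. Cebpb (-1.34), Ppargc1a (-1.09) and Foxo1 (-1.03) were the most reduced, and Usf1 (0.44), an E-box binding factor, was the higher one. Hnf4a, the receptor that drives much of the apolipoprotein group in liver and is named here after its value was seen, was lower by 1.31-fold (-0.38, SE 0.084, limma adjusted p = 0.0113). With the mean of its probe sets Hnf4a no longer passed (-0.25, adjusted p = 0.136).

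**Figure D5:**
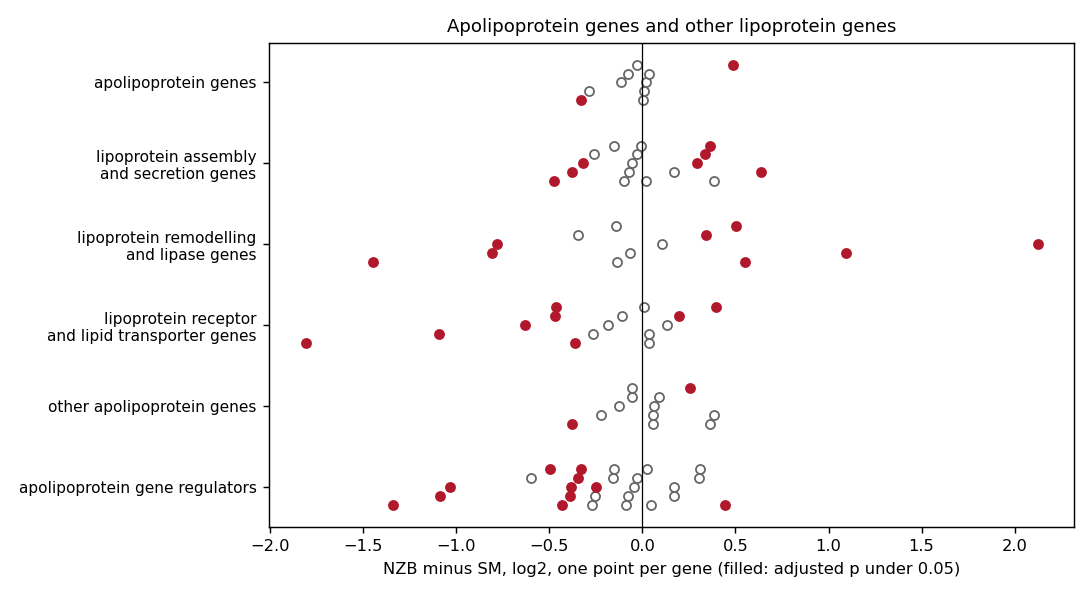
Difference between the strains (NZB minus SM, log2) at 1 probe set per gene for the 10 apolipoprotein genes and 5 lists of other lipoprotein genes, 1 point per gene, filled where the adjusted p was under 0.05. The apolipoprotein genes lie between -0.33 and 0.49, while the lipase and receptor lists reach from -1.81 (Cd36) to 2.12 (Lpl).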

How the data were processed

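Liver RNA of 3 SM and 3 NZB mice was measured on single-color arrays. The authors deposited 1 table of RMA values, per the submitters' processing notes. Which RMA version and options they used is not stated in the labels. These deposited values were taken as log2 because the highest, 14.8955, exceeds the natural log limit of a 16-bit scanner, 11.1, and not its log2 limit, 16. RMA shrinks differences near background, and bright probe sets can saturate. No further normalization was applied.

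Probe sets were named through the platform's annotation (34945 with 1 gene, 932 with several, 9160 with none), with symbols updated by Entrez ID through RefSeq GRCm38.p6 (34741 matched, 204 kept the platform's symbol). The strains were tested with limma (version 3.58.1, R version 4.3.3; lmFit and eBayes). P-values were adjusted by Benjamini-Hochberg over 45037 probe sets, and separately over 18193 genes, each by its brightest probe set. The script was tested on simulated data, with planted differences larger than those of Apoc2 and Apoa5, so that differences of their size were not covered. Alternatives were quantile normalization, aligned medians, trended and robust variances, array weights, each array left out, the replicate number as a block, filters on dim probe sets (at 2 floors, the lower added after the data were seen) and on cross-hybridizing ones, and, per gene, the mean of its probe sets.

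The members and lists were chosen with earlier results of these data known, and the promoter motifs after the sequences were read. All member probe sets are named. Of each list, up to 3 genes per direction with the largest differences past the threshold are named, or all where 5 or fewer passed. Mttp, Apobec1, Lrp1, Hnf4a, the flanking genes and single marker genes were named after their values were seen. Some genes of the lists were not analysed here.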

Additional observations from a re-analysis of the deposited data

How the results depend on the processing

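Apoc2 kept its direction and its call in all 14 other settings at the probe set level, and Apoa5 kept its direction but lost its call in 6. The count of apolipoprotein probe sets past the threshold was therefore 1 after quantile normalization and 1 to 2 with an array left out, and the count of apolipoprotein genes was 1 to 2. Of all probe sets, 4128 passed without dim probe sets, where fewer were tested, and 3741 to 6386 with an array left out. With the replicate number as a block 6006 of them passed, against 6659, and 2 apolipoprotein probe sets. The values gave no sign that the numbers pair the mice, though 3 mice per strain cannot settle this. Deviations of same-numbered mice correlated at 0.037, -0.055 and 0.025, and not every mouse correlated best with its own number. The list of receptor and transporter genes held 5 to 9 called genes with an array left out, and the further apolipoproteins 1 to 3. Differences near 0 changed sign, none of them past the threshold. Quantile normalization gave -0.061 (Apoa1 1419233_x_at), -0.036 (1438840_x_at), -0.014 (1455201_x_at), -0.0084 (Apoa2), -0.0050 (Apob 1455593_at) and -0.064 (Apoe). Aligned medians gave -0.014 (Apoa1 1419233_x_at), -0.0092 (1438840_x_at), -0.031 (Apob 1455593_at) and -0.025 (Apoe). With an array left out, the differences of these Apoa1 probe sets reached 0.038, 0.051 and 0.091 at most and those of Apob 1455593_at and 1457554_at 0.046 and 0.38. Without SM replicate 1 the values were -0.021, -0.014 and -0.0020 for these Apoa1 probe sets in turn and -0.0070 and -0.0091 for Apob 1455593_at and 1457554_at. Apob 1455593_at was -0.018 without NZB replicate 1 and -0.024 without NZB replicate 3. The cause of these changes was not tested. Of called genes, 40.3% were higher in NZB on the deposited scale, beside 30.3% with aligned medians and 47.5% after quantile normalization. Of 36 called genes in the 5 lists, 25 kept their call in every setting. Signal near saturation limits what the 8 brightest apolipoprotein probe sets can show.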
